A study of Mus musculus with 8 samples.

Results

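Fibroblast growth factors (FGFs) are secreted proteins that bind receptor tyrosine kinases on nearby cells with the help of heparan sulfate. The receptors signal through the adaptor Frs2 to the Ras and ERK cascade. The pathway switches on some of its own inhibitors, among them the ERK phosphatase Dusp6 and Sprouty proteins, and the Ets transcription factors Etv4 and Etv5. The Spred proteins are further inhibitors of the cascade. In the reproductive tract, as in other tubular organs, stromal ligands such as Fgf7 and Fgf10 act on the epithelial form of Fgfr2. RNA for these genes was measured in the oviducts of adult mice that had been injected as newborns with the soy phytoestrogen genistein (Gen). The members were the noncontrol probes whose gene name in the array files begins with Fgf, begins with Spry or Spred and a number, or is Dusp6, Frs2, Frs3, Etv4, Etv5, Klb or Kl. They were 43 genes with 77 probes, of 27654 genes and 41174 probes on the array. The name rule also took in the FGF binding protein Fgfbp1 and 2 genes, Fgfr1op and Fgfr1op2, that are named after fusions with the receptor gene and are not FGF signaling proteins.

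The groups were 4 control CD-1 females, given corn oil, and 4 CD-1 females given Gen at 50 mg/kg/day in corn oil, all by subcutaneous injection on PND1–PND5. At 6–8 weeks all 8 mice received gonadotropins and were mated, and on GD2 (48 hr past the hCG injection) the oviducts, freed of embryos, were taken for RNA. Each array (Agilent whole mouse genome, 1 dye, Cy3) carried the RNA of 1 mouse, and the values are processed signals scaled between arrays. Treatment and slide cannot be told apart, since each group was hybridized on a slide of its own. Whole oviduct was used, so fewer cells of a type and less RNA per cell cannot be told apart either. All 9 secretory and all 10 ciliated epithelial markers were well above background in at least 1 group, and none of them was called different. Probes well above background numbered 25391–28949 in control mice and 29539–31486 in Gen-treated mice, and for the FGF probes the numbers were 44–53 and 55–63.

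Of the 43 FGF genes, 32 were measured, which here means that every mouse of 1 group or the other had a signal well above background at the brightest probe of the gene. For 29 genes that held on all 8 arrays, and 5 genes (Fgf3, Fgf6, Fgf15, Fgf22 and Spry3) were above background on no array. The GD2 oviduct had a broad set of ligand transcripts: Fgf1, Fgf5, Fgf7, Fgf8, Fgf9, Fgf10 and Fgf18 were above background in every mouse. All 5 receptor genes and 6 of the 8 feedback genes were above background in every mouse too. The 3 endocrine ligands, Fgf15, Fgf21 and Fgf23, were not measured. Fgf17, Fgf16, Fgf21, Fgf23, Kl and Spred3 were above background on some arrays only, and at the brightest probe 3 of them, Fgf16, Fgf17 and Fgf21, were so on the array of Gen mouse 2 alone. The other Fgf21 probe was above background in control mouse 4 alone.

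**Figure D1:**
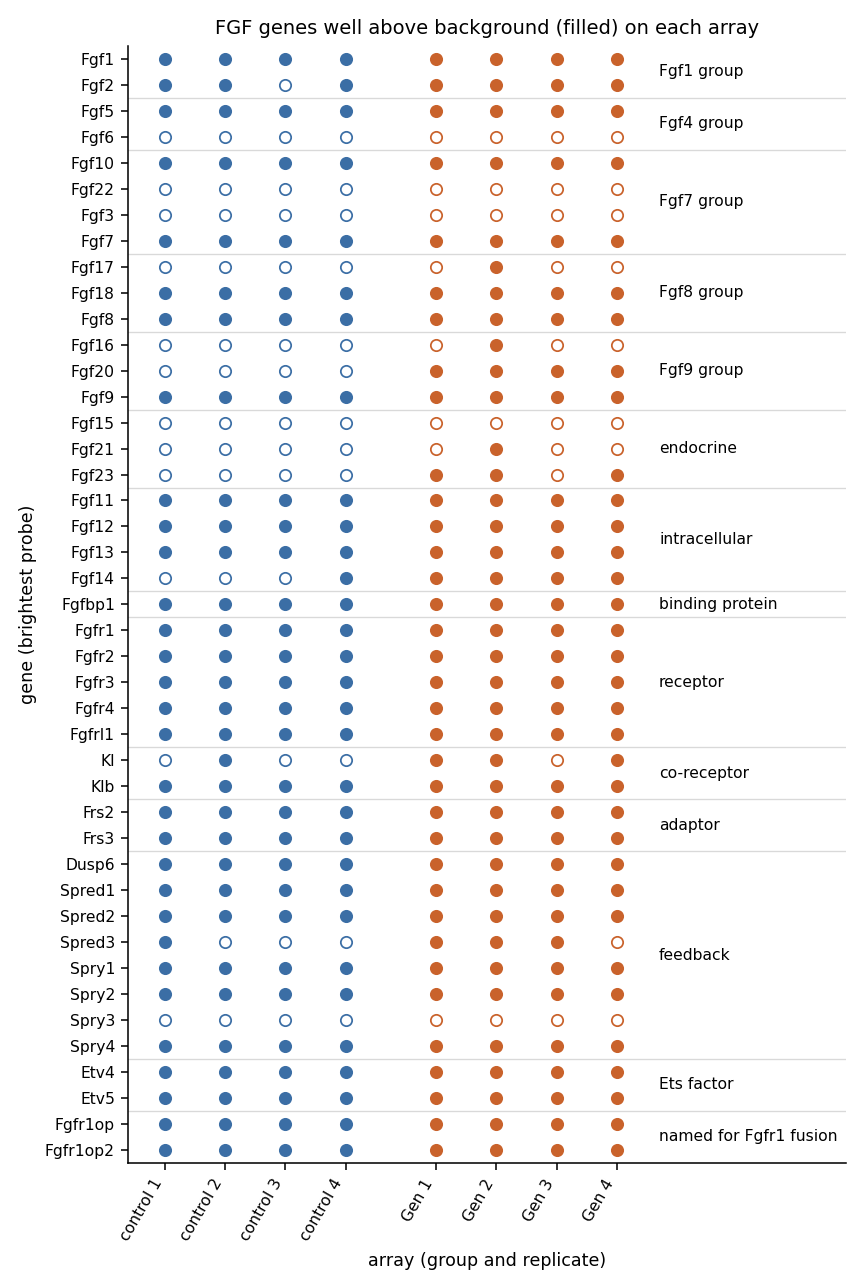
Each row is 1 of the 43 FGF genes, read at its brightest probe, and each column is 1 array of a control (blue) or Gen-treated (orange) mouse; a filled circle is a signal well above background. The receptors are filled on all 8 arrays, Fgf20 is filled on the 4 Gen arrays and on 0 control arrays, and Fgf3, Fgf6, Fgf15, Fgf22 and Spry3 are open throughout.

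FGF genes were called different at about the share of the whole array. With limma and Benjamini-Hochberg adjustment over all 41173 probes tested, 2 of the 32 measured genes, the ligands Fgf5 and Fgf20, were called higher in Gen-treated mice compared with controls, and 0 were called lower. Fgf20 was above background in no control mouse and was counted as measured only through the group in which it was high. Over all 19236 measured genes on the array, 3.16% were called higher, 2.18% lower and 5.34% in either direction. When dim probes were left out before the adjustment, 0 of the 32 passed limma's test (background 1.22%). In that fit 6 had an unadjusted p under 0.05, with no share of all measured genes to set beside it. In the fit of all probes 4 of the 32 had an unadjusted p under 0.05, beside 17% of all measured genes. Counting only the 29 genes above background on all 8 arrays, a setting added after the data were seen, 1 gene (Fgf5) was called higher, beside 2.21% of all such genes. The groups did not overlap for 4 of the 32 genes, Fgf5, Fgf20, Fgfr4 and Spred1, beside 12.5% of all measured genes, and for 3 of the 29, beside 12.4%. The Fgfr4 probe read here is the brightest over all 8 arrays but not over the control arrays, where another probe, with overlapping groups, was brighter. The median log2 fold change of the 32 genes was 0.06, and that of all measured genes was 0.03. The value was below 0 for 13 of the 32, beside 45.4% of all measured genes.

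Most FGF transcripts, like most measured genes on the array, lay close to the control level. The log2 fold change was within 0.5 of 0 for 28 of the 32 genes (87.5%, beside 84.0% of all measured genes). For 27 of the 32 (84.4%, beside 79.3%) the whole 95% interval lay between -1 and 1, so that a 2-fold change was outside it. The 5 genes whose interval reached further were Fgf5, Fgf20, Fgfr4, Spry4 and Fgf14.

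**Figure D2:**
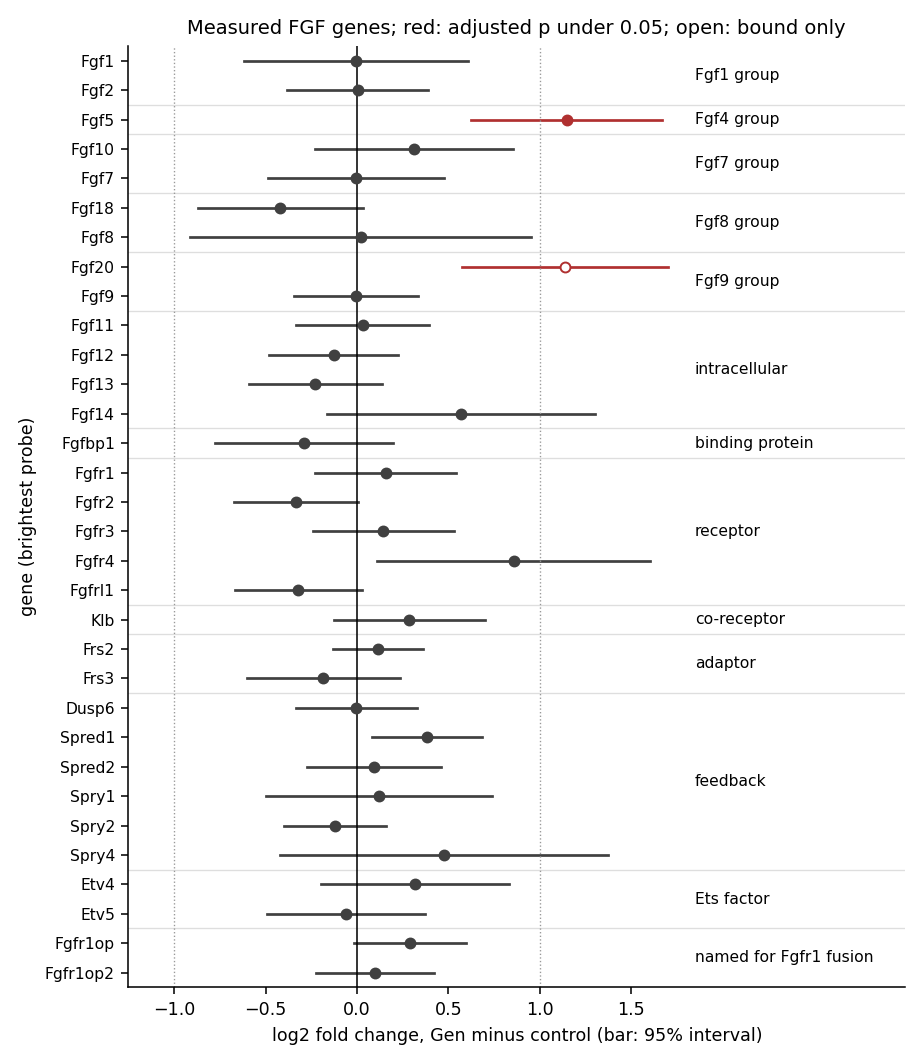
Log2 fold change (Gen minus control) of the 32 measured FGF genes at the brightest probe of each, with its 95% interval from limma over 4 arrays a group; dotted lines stand at -1 and 1, red marks an adjusted p under 0.05, and the open circle marks Fgf20, whose control signals were not above background, so that its place is no measured size. Fgf5 stands at 1.15, and Dusp6, Fgf1, Fgf2, Fgf7 and Fgf9 lie on 0.

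Fgf5, a ligand of the Fgf4 group best known as a regulator of the hair cycle, was measured by 1 probe, well above background on all 8 arrays. Its first 30 bases, shown because the call rests on this oligonucleotide alone, and the place of the 60-base probe in the array design (mm7) follow, with those of the probe for Fgf20.
Fgf5 probe, chr5:97491844-97491903, plus strand: atggagatctatgaagtataagtgttcacc
Fgf20 probe, chr8:39070356-39070415, minus strand: aaggatggaactccaagagatggtgccagg
The scaled signals of Fgf5 were 105, 130.1, 92.1 and 72.4 in the control mice and 226, 157, 231 and 268 in the Gen-treated mice. Every Gen-treated mouse was above every control mouse, and Gen mouse 2 was the nearest to the controls. The log2 fold change was 1.15 (SE 0.23, 95% interval 0.63 to 1.67, n = 4 and 4), with an adjusted p of 0.0236 by limma. The exact permutation p, 2-sided over the 70 assignments of the arrays, was 0.0286, the smallest the design allows. Any gene whose groups do not overlap has that value. Leaving dim probes out of the adjustment gave an adjusted p of 0.0518 by limma. With normexp background correction the log2 fold change was 0.70 (adjusted p 0.103 by limma). That setting adds an offset of 50, which draws differences between dim signals toward 0. With control replicate 1 or Gen replicate 1, 2 or 3 left out, the adjusted p was 0.0591, 0.0633, 0.0675 and 0.0603, and the log2 fold change was 1.18, 1.13, 1.30 and 1.12.

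The 250 bases before the start of Fgf5 were read from the RefSeq promoter table to show what stands upstream of the 1 member called at a signal above background in both groups. The motifs searched, on both strands, were the estrogen response element (2 inverted GGTCA cores 3 bases apart), the core alone, the Pitx site TAATCC, the Ets site CCGGAA and the TATA box TATAAA. The core lies within the full element, and no other pair of these motifs contains one another. In the sequence below (GRCm38.p6) capitals mark the matches, an Ets site near the 5′ end and a core farther in.
Fgf5 upstream, chr5:98253934-98254183, plus strand: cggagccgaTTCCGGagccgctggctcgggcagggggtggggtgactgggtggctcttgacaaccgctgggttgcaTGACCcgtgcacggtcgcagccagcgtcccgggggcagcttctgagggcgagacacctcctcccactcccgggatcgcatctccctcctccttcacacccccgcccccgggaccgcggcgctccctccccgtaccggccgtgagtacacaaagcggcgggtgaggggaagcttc
The window had 0 full estrogen response elements, 1 core, 1 Ets site, 0 Pitx sites and 0 TATA boxes, and its GC content was 70.8%. Of all 27025 promoter windows of this length, 34.9% held the core, 12.2% the Ets site, 13.0% the TATA box, 6.38% the Pitx site and 0.0629% the full element. Of the 32 FGF genes with an entry, 11 held the core (34.4%), 4 the Ets site (12.5%) and 1 each the TATA box and the Pitx site (3.12%).

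Fgf20, a ligand of the Fgf9 group with known roles in the inner ear and the hair follicle, was the other gene called, and its probe was dim. The scaled signals were 15.1, 18.5, 24.1 and 28.7 in controls and 53.7, 35.7, 58.2 and 40.8 in Gen-treated mice. The probe was well above background on 4 Gen arrays and 0 control arrays, so the gene was measured only through the group in which it was high. With each control signal raised to at least the lowest signal well above background on its array, the Gen mean was 1.16-fold the control mean. This ratio of group means is no firm lower limit, since that lowest signal in control mouse 3 (65.9) was above every Gen signal. It was 1.05 with quantile normalization, 1.04 without control replicate 4, 1.00 with a floor and 1.37 with no scaling between arrays. The adjusted p of 0.0236 by limma (0.0656 without dim probes) was computed on control signals that were not above background, and so it adds nothing to that ratio. That lowest signal was 28.5–65.9 in control mice and 14.5–20.9 in Gen-treated mice. The normexp setting adds an offset of 50, near the size of these signals, which draws differences toward 0. Under it the log2 difference was 0.17 (adjusted p 0.462 by limma), again on control signals not above background, and the ratio was 0.997.

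Of the ligands that act outside the cell, 7 others were measured and 0 of them were called. Fgf18, a ligand of the Fgf8 group that acts in bone and lung, had 6057, 7791, 6104 and 7178 in controls and 7129, 3909.8, 4857 and 4769 in Gen-treated mice. Of the Gen-treated mice 3 were below every control mouse and Gen mouse 1 was among the controls, and the log2 fold change was -0.42 (SE 0.20, adjusted p 0.208 by limma). Fgf10, a stromal ligand of the epithelial form of Fgfr2, had 755, 617, 657 and 642 in controls and 537, 745, 1045 and 1116 in Gen-treated mice, with a log2 fold change of 0.31 (SE 0.23). The Gen-treated mice spread on both sides of the controls. Fgf7, the other stromal ligand of the same receptor form, stood at -0.01 with an interval of -0.49 to 0.48. Fgf9 stood at -0.01 (-0.34 to 0.33) and Fgf1, which binds all the receptors, at -0.01 (-0.62 to 0.61). Fgf2 stood at 0.00 (-0.38 to 0.39) with signals of only 42.1–69.8.

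Fgf8, which mouse oocytes are known to make for the cumulus cells around them, differed more between Gen-treated mice than between the groups. Its scaled signals were 238, 189.8, 192 and 203 in controls and 237, 478, 129 and 128 in Gen-treated mice. Gen mouse 2 was above and Gen mice 3 and 4 were below all other mice, and the log2 fold change was 0.02 with an SE of 0.40. Oocyte transcripts varied between the same libraries: the signal of Gdf9 was 3201, 272, 2445 and 229 in controls and 5959, 19371, 3252 and 3346 in Gen-treated mice, with Gen mouse 2 the highest in both genes. All 9 oocyte and embryo markers had a positive log2 fold change with 0 called, their median was 2.83, and their summed signal was 9430–18503 in controls and 14902–49183 in Gen-treated mice. Their part in the Fgf8 signal was not tested. Without Gen replicate 2 the log2 fold change of Fgf8 was -0.38.

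**Figure D3:**
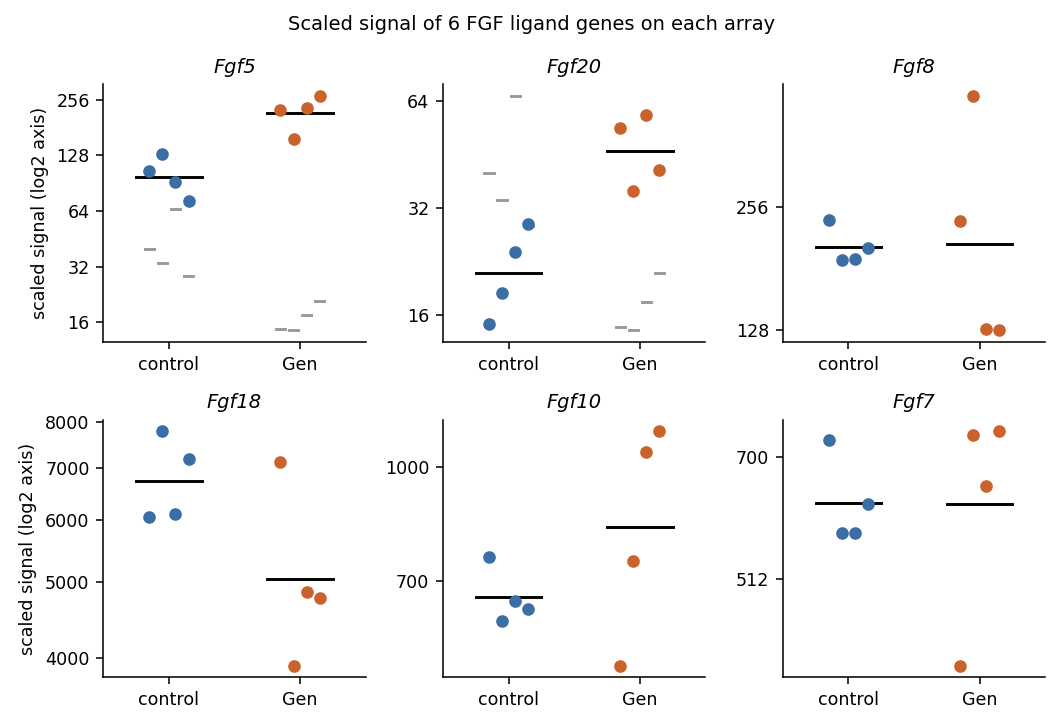
Scaled signal, on log2 axes that differ between panels, of 6 ligand genes in each control (blue) and Gen-treated (orange) mouse, with black lines at the means of the log2 signals; grey ticks in the Fgf5 and Fgf20 panels are the lowest signal well above background on that array. For Fgf5 and Fgf20 every Gen-treated mouse lies above every control mouse, and for Fgf20 control mice 1 to 3 lie under their ticks while control mouse 4 (28.7) lies beside its own (28.5).

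The libraries in which Fgf5 and Fgf20 were called higher also had higher signals for several lists of cell type markers. Of 9 measured ovarian steroidogenic markers 4 were called higher (0 without dim probes; median log2 fold change 1.80), 1 of which, Lhcgr, was above background in no control mouse, and their summed signal was 16130–47952 in controls and 52466–159478 in Gen-treated mice. Of 10 B cell and plasma cell markers 4 were called higher (2 without dim probes; median 1.21), with summed signals of 55319–68938 and 92197–121645. The T cell and natural killer cell list and the macrophage list each had 2 of 10 called higher (0 and 1 without dim probes), with medians of 0.49 and 0.39, and of the T cell genes called Cd8a was above background in no control mouse. Their summed signals were 2379–2667 and 123399–182245 in controls and 2702–3606 and 174972–239797 in Gen-treated mice, so the macrophage sums overlapped between groups. The 10 smooth muscle markers all had a log2 fold change below 0 with 0 called and a median of -0.26. Of the 7 measured stratified squamous markers 0 were called, and Krt6a, Dsg3 and Ivl were above background on no array. The fibroblast, endothelial and mesothelial lists had 0 called, with medians of 0.04, 0.20 and 0.16. Among the Gen-treated mice, mouse 2 had the lowest Fgf5 and Fgf20 signals (157 and 35.7). The same mouse had the highest summed signals for the ovarian, B cell, T cell and macrophage lists. The part of the listed cell types in the Fgf5 and Fgf20 signals was not tested.

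The intracellular relatives of the FGFs, Fgf11 to Fgf14, do not act on the receptors and are known to bind sodium channels. All 4 were measured, 0 were called, and 3 were above background on all 8 arrays. Their log2 fold changes were 0.03 for Fgf11, -0.13 for Fgf12, -0.23 for Fgf13 and 0.57 (SE 0.32) for Fgf14, whose probe was above background on 1 control and 4 Gen arrays. Fgfbp1, which releases stored FGFs from the matrix, stood at -0.29 (SE 0.21).

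The receptor Fgfr2 was lower on average at each of its 3 measured probes, and none of the 3 passed the test. The probes are shown by their first 30 bases because they read different places of 1 gene.
Fgfr2 probe 1, chr7:126278278-126278337, minus strand: gaggactagttaatctattgcttggactta
Fgfr2 probe 2, chr7:126279021-126279080, minus strand: ctgcctcagtatccacacataaacggcagt
Fgfr2 probe 3, chr7:126407714-126407773, minus strand: caacaataggacagtgcttattggggagta
Probes 1 and 2 lie 683 bases apart and probe 3 lies 128.6 kb upstream of them on the strand of the gene (mm7). At probe 1, the brightest, the signals were 4410.4, 6180.1, 6471 and 5574 in controls and 4291, 4267, 5002 and 4256 in Gen-treated mice. Only Gen mouse 3 reached above the lowest control mouse, and the log2 fold change was -0.33 (SE 0.15, adjusted p 0.185 by limma). At probe 2 the signals were 793, 1264, 1199 and 1129.8 in controls and 753, 789, 856 and 682 in Gen-treated mice, with a log2 fold change of -0.49 (adjusted p 0.0945). At probe 3 they were 109.9, 180.3, 135 and 275 in controls and 102, 98.3, 104 and 72.5 in Gen-treated mice. The groups did not overlap at probe 3, where the log2 fold change was -0.82 (SE 0.28, adjusted p 0.0950). In all 3 sets control mouse 1 was the lowest of the controls and lay nearest to the Gen-treated mice. The 3 probes read the same RNA samples and are no replicates of each other, and differences in change between them were not tested.

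Fgfr4 gave different values at its 3 probes, which lie within 1 kb of each other.
Fgfr4 probe 1, chr13:54251006-54251065, plus strand: ccctccattgcttgttccagcatcttggtg
Fgfr4 probe 2, chr13:54250389-54250448, plus strand: gaagctgaccagctctgttccttgcagtac
Fgfr4 probe 3, chr13:54250254-54250313, plus strand: cagctggtggaagctctggacaaggtcctg
At probe 1, the most 3′ of them, the signals were 148, 102, 140.1 and 154 in controls and 208, 486, 181 and 192 in Gen-treated mice. All Gen-treated mice were above all controls there, with Gen mouse 2 far above the rest, and the log2 fold change was 0.86 (SE 0.32, adjusted p 0.125 by limma) or 0.53 without Gen replicate 2. Probe 1 was the brightest over the 8 arrays through the Gen values, since in controls its mean signal was 134 and that of probe 3 was 174. At probes 2 and 3 the groups overlapped, with log2 fold changes of -0.12 and -0.03. Averaging the probes of the gene gave 0.24 (adjusted p 0.528 by limma).

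Fgfr1, the receptor of mesenchymal cells in many organs, had 4 measured probes with log2 fold changes of 0.16, -0.05, 0.04 and -0.13, and 2 of those probes share 39 bases. At its brightest probe the interval was -0.23 to 0.54. The 2 measured probes of Fgfr3 share 37 bases and stood at 0.14 and 0.01. Fgfrl1, a receptor without a kinase domain, had 3748, 3929, 4825 and 4250.2 in controls and 3229, 3562, 3970.4 and 2722 in Gen-treated mice. Gen mice 1, 2 and 4 were below all controls, and the log2 fold change was -0.32 (SE 0.15, adjusted p 0.212 by limma).

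**Figure D4:**
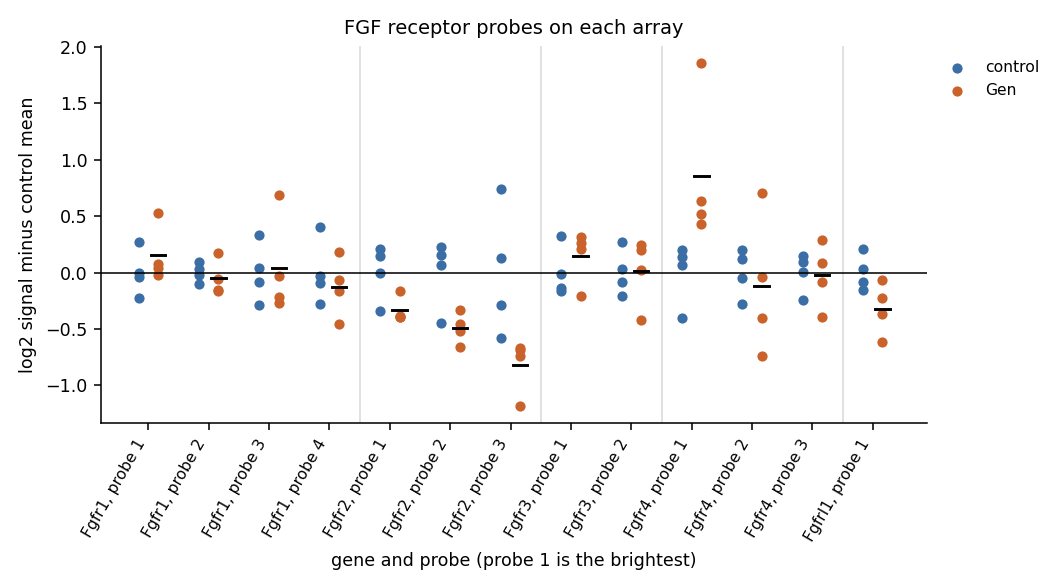
Log2 signal minus the mean of the control arrays at each of the 13 measured probes of the 5 receptor genes, for control (blue) and Gen-treated (orange) mice, with a black line at the mean of the Gen arrays. All 3 Fgfr2 probes have a Gen mean below 0, and at Fgfr4 probe 1 a single Gen array lies far above the rest.

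The co-receptor Klb, which pairs the receptors with endocrine FGFs, had a log2 fold change of 0.29 (SE 0.18) at its measured probe, and Kl was not measured. The adaptor Frs2 stood at 0.12 (interval -0.13 to 0.36), with 0.26 and 0.13 at its other measured probes, and Frs3 stood at -0.18 (SE 0.18). The name-only genes Fgfr1op and Fgfr1op2 stood at 0.29 and 0.10, and the second probe of Fgfr1op stood at -0.28. Across the 15 members with 2 or more measured probes, all probes of a gene were on the same side of 0 for 9, beside 58.4% of such genes on the array, and the median spread between probes was 0.157 on the log2 scale.

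The feedback genes encode inhibitors of Ras and ERK signaling, and FGF and ERK signaling are known to raise the transcripts of some, such as Dusp6. Of these 8 genes 6 were measured and 0 were called. Dusp6, the ERK phosphatase, had 21349, 16466, 18858 and 16218 in controls and 15346, 20470.0, 17563 and 19261 in Gen-treated mice. The 2 sets of values lay in the same range, and the log2 fold change was 0.00 with a 95% interval of -0.34 to 0.33. Spry1 and Spry2, inhibitors of Ras and ERK signaling, stood at 0.12 (-0.50 to 0.74) and -0.12 (-0.40 to 0.16). For Spry1 the Gen-treated mice had 6620.5, 5699.9, 9179 and 14139, with Gen mouse 4 above all other mice and Gen mice 1 and 2 below all controls. Spry4 was 59.2–136 in controls and 112, 91.5, 91.6 and 261 in Gen-treated mice, again with Gen mouse 4 the highest, and its log2 fold change was 0.48 (SE 0.39). Spred2 stood at 0.09 (-0.28 to 0.46) at its brightest probe and 0.61 (SE 0.37) at the other, and Gen mouse 4 was the highest at both.

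Spred1, a membrane-bound inhibitor of Ras activation, was the feedback gene with no overlap between groups. It had 4807, 4298, 4429 and 4413 in controls and 4979.6, 5611, 5928 and 7031 in Gen-treated mice. Gen mouse 1 was close to the highest control, and the log2 fold change was 0.38 (SE 0.13, adjusted p 0.0915 by limma). The exact permutation p of 0.0286 is fixed by the lack of overlap and adds nothing to it. With an intensity trend and a robust fit the adjusted p was 0.0473. The other Spred1 probes, dimmer and 4.73 and 10.1 kb away, stood at 0.17 and 0.05 and their groups overlapped. The Ets factors Etv4 and Etv5 stood at 0.32 (SE 0.22) and -0.06 (SE 0.19). Spry3 and Spred3 were not measured.

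**Figure D5:**
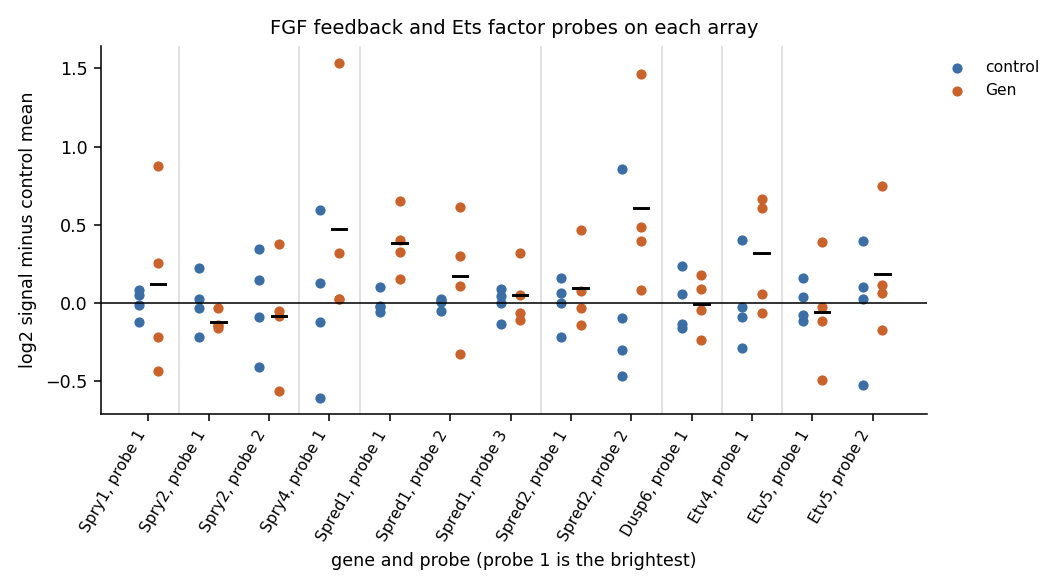
Log2 signal minus the mean of the control arrays at each of the 13 measured probes of 6 feedback genes and the Ets factors Etv4 and Etv5, for control (blue) and Gen-treated (orange) mice, with a black line at the mean of the Gen arrays. At Spred1 probe 1 all Gen arrays lie above all control arrays, Dusp6 is centred on 0, and 1 Gen array stands highest for Spry1, Spry4 and both Spred2 probes.

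For the members that were not measured no change is given. Among genes not measured on the array, 44% were called lower in the fit of all probes and 0.523% higher, and the lowest signal counted as well above background differed between the groups as given for Fgf20. Over all probes, 16.2% were called in either direction, and of the 77 FGF probes 8 were, with the 6 lower ones all at probes not measured. Of the 11 FGF genes not measured, Fgf6 and Fgf16 had an adjusted p under 0.05 with lower values in Gen-treated mice. Their signals were 7.59–17.3 and 24.1–35.8 in controls and 3.31–5.40 and 11.1–19.97 in Gen-treated mice, and neither was well above background on any control array.

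Genes that act with the FGFs were read from 4 lists with 73 names, of which 71 were on the array and 69 measured. In the limma fit 2 were called higher and 1 lower (4.35%, beside 5.34% of all measured genes), 0 were called without dim probes, and 12 had an unadjusted p under 0.05 (17.4%, beside 17%). The groups did not overlap for 8 of the 69 (11.6%, beside 12.5%). These shares were near those of the whole array, and the 3 genes called are named with their values as a description. Their median log2 fold change was -0.02. Of 22 genes of the cascade from receptor to ERK, Ksr1, a scaffold of that cascade, rose from 161–242 to 286–342 (log2 fold change 0.66, adjusted p 0.0397; 0.1001 without dim probes). Of 9 other receptor modulators and ERK phosphatases, Dusp4, a nuclear ERK phosphatase, rose from 359–440.1 to 464–935 (0.78, adjusted p 0.0398; 0.102 without dim probes). Flrt1, a membrane protein that binds FGF receptors, fell from 120–186 to 61.3–98.3 (-0.91, adjusted p 0.0236; 0.0617 without dim probes). Of 20 measured heparan sulfate genes and 18 measured transcription targets of FGF and ERK signaling 0 were called, and their medians were 0.00 and 0.11.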

How the data were processed

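Oviduct RNA of 4 control and 4 Gen-treated mice was measured on 8 single-dye arrays. The authors deposited Agilent Feature Extraction (version 9.5) output, whose processed signals are linear intensity values already adjusted for background and detrended, and the series matrix repeats them. Outlier spots were left out, log2 signals of a probe were averaged, and arrays were scaled to a common 75th percentile. Groups were compared with lmFit and eBayes of limma 3.58.1 in R 4.3.3, with Benjamini-Hochberg adjustment over 41173 probes (28967 without dim probes) and a threshold of 0.05. A gene was read at its brightest probe, and 4 pathway and 12 marker lists were described without a set test. The genes named are those called, all receptors and feedback genes, and members without overlap between groups, with the rest given by counts and ranges or as measured levels. The members and lists were chosen with earlier results of these data known. Promoters came from RefSeq (GRCm38.p6), and probe places are those of the design (mm7), so exons are not given. Alternatives were quantile, no and detected-median scaling, normexp (offset 50), a dim-probe filter, a floor, outliers kept, an intensity trend, the methods' t-test, a replicate block, probe means, and each array left out. The fit was tested on simulated data. Plots used matplotlib. The number of arrays limits the precision, and p-values measure the spread between replicates of 1 slide each.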

Additional observations from a re-analysis of the deposited data

Results flagged for a closer look

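Of 64 groups of 4 arrays tested over the 32 measured FGF genes, 3 had a single mouse far from the others, where chance flags about 1 in 20 groups. The gaps and ranges are those of log2 signals, and the signals in brackets are linear. For Fgfr2 the gap of Gen mouse 3 (5002) to the next mouse (4291) was 0.949 of the range of the Gen group at the brightest probe. For Fgfr4 the gap of Gen mouse 2 (486) to the next (208) was 0.859 of the range, at the 1 Fgfr4 probe where the groups did not overlap. For Spry2 the gap of Gen mouse 3 (2499) to the next (2313) was 0.853 of the range, and all 4 Gen-treated mice lay within the control range of 2196–2977. The cause of these gaps was not tested.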

How the results depend on the processing

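The number of FGF genes called was 2 in the analysis as reported and 1 (Fgf5) with no scaling between arrays. It was 0 with quantile normalization, normexp background correction, dim probes left out, a floor, the methods' t-test or the replicate block. In those settings 4, 5 or 6 genes (2 in the block) had an unadjusted p under 0.05. No share of all measured genes is given beside these unadjusted counts, and they are not read as results. The number called was 0 to 2 with each array left out (0 without control replicate 1 or Gen replicate 1, 2 or 3). With an intensity trend and a robust fit it was 3, which added Spred1. It was 1 among genes well above background on all 8 arrays, a setting chosen after seeing the data. The pathway lists had 3 genes called as reported, 5 with scaling to the median of detected probes, 6 with the trend and robust fit, 0 with quantile normalization, no scaling, normexp, dim probes left out, a floor, the methods' t-test or the replicate block, and 0 to 4 with each array left out (0 without control replicate 1 or Gen replicate 1, 2 or 3, and 1 without control replicate 2 or 4 or Gen replicate 4). With no scaling the median log2 fold change of all measured genes was 0.27 in place of 0.03. Dusp6 (0.24), Fgf1 (0.24), Fgf7 (0.23), Fgf9 (0.23), Etv5 (0.18), Spry2 (0.12), Fgf12 (0.11), Frs3 (0.06) and Fgf13 (0.01) then changed sign but stayed below that median. Spry4 (-0.31), Klb (-0.45) and Fgf14 (-0.32) changed sign when dim probes of the same gene were averaged in, and Fgf14 also with normexp (-0.12). None of those values was called. The adjusted p of Fgf5 ran from 0.0182 to 0.140 and its log2 fold change from 0.70 to 1.39 over all alternatives. The deviations of same-numbered mice correlated at -0.08, 0.11, -0.02 and -0.18, so the replicate numbers showed no clear pairing. The paper compared Gen-treated mice with control littermates, but the sample labels give no litter. Littermates may carry different replicate numbers, so these correlations cannot show that the mice were unpaired, and an effect of litter was not tested. The cause of the differences between settings was not tested. Signal near background limits Fgf20, which was at or under the floor in every array under that setting.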
